A study of Rattus norvegicus with 16 samples.

Results

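The 8 genes described here, Gjb5, Ppm1j, Gabbr2, Gpr15lg, Stra6l, Ankrd34b, Lyzl1 and Shcbp1l, were selected on their array signal at day 14 of dosing, which was higher in treated kidneys, from genes outside the well-known stress pathways. They are 8 of the 15284 genes that had a named probe on the array. The day 14 difference therefore chose them and is given below as a description with no test, whereas the rule used no array of days 1, 7 or 28, although the list was drawn up with earlier results of these data known. The tissue was the outer medulla of the kidney, a zone rich in straight proximal tubules (the S3 segment) and thick ascending limbs, from male Crl:CD Sprague-Dawley rats that were 5 weeks old when dosing began. ANP rats were gavaged daily with 750 mg/kg of 2-amino-4-nitrophenol, an aromatic nitro compound, dissolved in corn oil. VC rats, the vehicle controls, received corn oil alone. Of the 16 one-colour arrays, those of days 1 and 7 carried pooled RNA of 3 animals, with 1 array for ANP and 1 for VC on each day. On days 14 and 28 there were 3 ANP and 3 VC arrays, and every array carried the RNA of a single rat.

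The 8 genes have no common pathway. Connexins such as Gjb5 build gap junction channels between neighbouring cells, and in the mouse Gjb5 is known from placenta and skin. Ppm1j is a serine/threonine phosphatase of the PP2C family, known from testis in the mouse. Gabbr2 is the subunit of the GABA-B receptor that couples to G proteins, and it works as a pair with Gabbr1, which binds the transmitter. Gpr15lg is a small secreted ligand of the receptor GPR15, made by colon and skin epithelia in human and mouse. Stra6l is a relative of the retinol transporter Stra6, and in the mouse it binds retinol-binding protein in liver and intestine. Lyzl1 is a lysozyme-like protein known from the human male reproductive tract, and Shcbp1l is a spindle protein of male germ cells in the mouse. Ankrd34b is an ankyrin repeat protein about which little is known.

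The promoters of these genes are shown for 4 members, the 2 whose window held one of the searched motifs and 2 that held none, Stra6l and Lyzl1. The windows of Ppm1j, Gpr15lg and Ankrd34b held none either and are not shown. The RefSeq promoter table (assembly GRCr8) had an entry for 7 of the 8 members, without Gjb5. Each sequence below is the 250 bases before the annotated start, 5′ to 3′ on the gene's own strand, and capitals mark a match to GCGTG, the core of the xenobiotic response element that the aryl hydrocarbon receptor binds. Gabbr2 lies at chr5:66083696-66083945 on the minus strand, Shcbp1l at chr13:68119104-68119353 on the plus strand, Stra6l at chr5:64902461-64902710 on the plus strand and Lyzl1 at chr17:58239096-58239345 on the minus strand.
Gabbr2: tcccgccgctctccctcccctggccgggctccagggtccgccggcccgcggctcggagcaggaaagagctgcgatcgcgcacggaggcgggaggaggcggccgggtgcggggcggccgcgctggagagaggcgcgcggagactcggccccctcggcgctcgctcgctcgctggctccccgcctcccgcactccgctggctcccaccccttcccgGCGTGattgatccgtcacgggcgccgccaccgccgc
Shcbp1l: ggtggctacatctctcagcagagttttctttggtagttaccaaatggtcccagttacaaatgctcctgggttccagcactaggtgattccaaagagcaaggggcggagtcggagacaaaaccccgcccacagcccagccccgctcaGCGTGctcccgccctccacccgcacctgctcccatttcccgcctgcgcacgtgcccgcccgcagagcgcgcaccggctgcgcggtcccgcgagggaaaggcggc
Stra6l: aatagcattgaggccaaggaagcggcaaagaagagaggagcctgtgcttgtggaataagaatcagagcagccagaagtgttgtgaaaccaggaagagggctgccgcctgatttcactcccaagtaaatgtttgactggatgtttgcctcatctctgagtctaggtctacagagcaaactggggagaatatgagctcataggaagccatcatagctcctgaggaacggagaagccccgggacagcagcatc
Lyzl1: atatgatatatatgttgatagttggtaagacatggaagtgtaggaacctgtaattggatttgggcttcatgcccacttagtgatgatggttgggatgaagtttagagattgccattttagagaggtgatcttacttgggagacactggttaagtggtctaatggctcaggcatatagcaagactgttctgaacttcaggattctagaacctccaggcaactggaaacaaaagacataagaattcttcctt

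The GCGTG match began 36 bases before the start in Gabbr2 and 104 bases before it in Shcbp1l. These were 2 of the 7 member windows of 300 bases (250 before and 50 after the start), and 29.7% of all 33469 windows held the same letters on either strand. None of the 7 windows held the antioxidant response element TGACNNNGC, the AP-1 site TGANTCA, the ATF4 element TGATGNAA or the heat shock element GAANNTTC, which occurred in 12.1%, 7.33%, 3.98% and 8.59% of all windows. These matches describe the letters in the windows only.

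Levels are given as a percentage of the array's own 75th percentile signal. A probe was taken as measured on an array where the scanner software marked it well above background. The 75th percentile lay between 809 and 1324 units, between 64.8% and 69.6% of probes were well above background, and no spot was saturated. The arrays lay on 4 slides. All arrays of days 1 and 7 shared slide 1, the VC arrays of day 14 and ANP replicate 1 of day 14 shared slide 2, the other two ANP arrays of day 14 shared slide 3 with the VC arrays of day 28, and the ANP arrays of day 28 lay alone on slide 4, so that slide and treatment cannot be told apart at day 28. All 6 named markers of the S3 segment and all 6 of the thick ascending limb were well above background on all 16 arrays. In bulk tissue, fewer cells of a type and less RNA per cell cannot be told apart.

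Across the time course, 5 of the 8 genes were at least 2-fold higher in ANP than in VC kidneys at day 1, all except Gabbr2, Stra6l and Lyzl1, where 4.83% of 12413 genes passed that fold. At day 7, 7 of the 8 genes passed it, all except Stra6l, against a background of 2.12% of 12122 genes. Shcbp1l counts on both days but was well above background only in the ANP pools, so it is no support. These pools have no replicate and so no test. The median log2 ratio of the 8 genes (ANP minus VC) was 1.40 at day 1, 1.75 at day 7, 2.34 at day 14 and 1.84 at day 28, where all genes measured had medians of -0.04, 0.04, 0.01 and 0.02. With members that had only a bound set at that bound, the median was 1.40 at day 1, 1.75 at day 7, 2.13 at day 14 and 1.84 at day 28. At day 14 every ANP array lay above every VC array for all 8 genes, a pattern that 10.2% of genes showed, and this is the contrast that chose them. At day 28 every ANP array lay above every VC array for 7 of the 8, Ankrd34b being the exception, against 18.6% of genes. The 7 include Lyzl1 and Shcbp1l, which the filter on dim probes kept only because they were bright in ANP kidneys, so they are no support.

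On the day 28 arrays, which the rule did not use, 6 of the 8 genes rose at an adjusted p under 0.05 (limma, Benjamini-Hochberg over 11849 genes), while 1.82% of all genes rose and 1.81% fell, 3.64% in all. Gabbr2 and Ankrd34b did not pass. The 6 include Lyzl1 and Shcbp1l, which the filter on dim probes kept only because they were bright in ANP kidneys, so their calls are no support. Of the 6 members kept without need of the ANP groups 4 rose. With probes required to be well above background on all 12 arrays 3 of 5 rose, where 285 of 11125 genes rose. Which genes passed depended on single animals. Without ANP replicate 2, VC replicate 1 or VC replicate 2 limma called 0 genes in either direction, with 2237, 2091 and 1921 genes at an unadjusted p under 0.05. The number of members called was 2 without ANP replicate 3, 4 without ANP replicate 1 and 4 without VC replicate 3. In those 3 fits 19, 147 and 55 of 11849 genes rose. All 8 log2 ratios stayed above 0 in each of these fits. For the 7 genes whose groups did not overlap, leaving out 1 animal could not have brought the ratio to 0 or below, so this is no support. For Ankrd34b the log2 ratio ran from 0.30 to 0.76. With no filter on dim probes, 3 of the 8 passed, Gjb5, Stra6l and Lyzl1, and 27 of 15284 genes rose. That fit drops the filter's dependence on ANP kidneys, but the choice of probe still used the ANP arrays. For Gjb5 and Lyzl1 no VC array of day 28 was well above background, so their ratios in that fit still rest on VC values near the background. Normexp background correction gave smaller log2 ratios for the dimmer genes, 1.72 for Gjb5, 1.61 for Lyzl1, 0.67 for Gpr15lg and 0.64 for Shcbp1l. It called the same number of members, 6, where 448 of 11849 genes rose. ANP replicate 3 was the highest ANP array of day 28 for 6 of the 8 genes and ANP replicate 1 the lowest for 6.

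**Figure D1:**
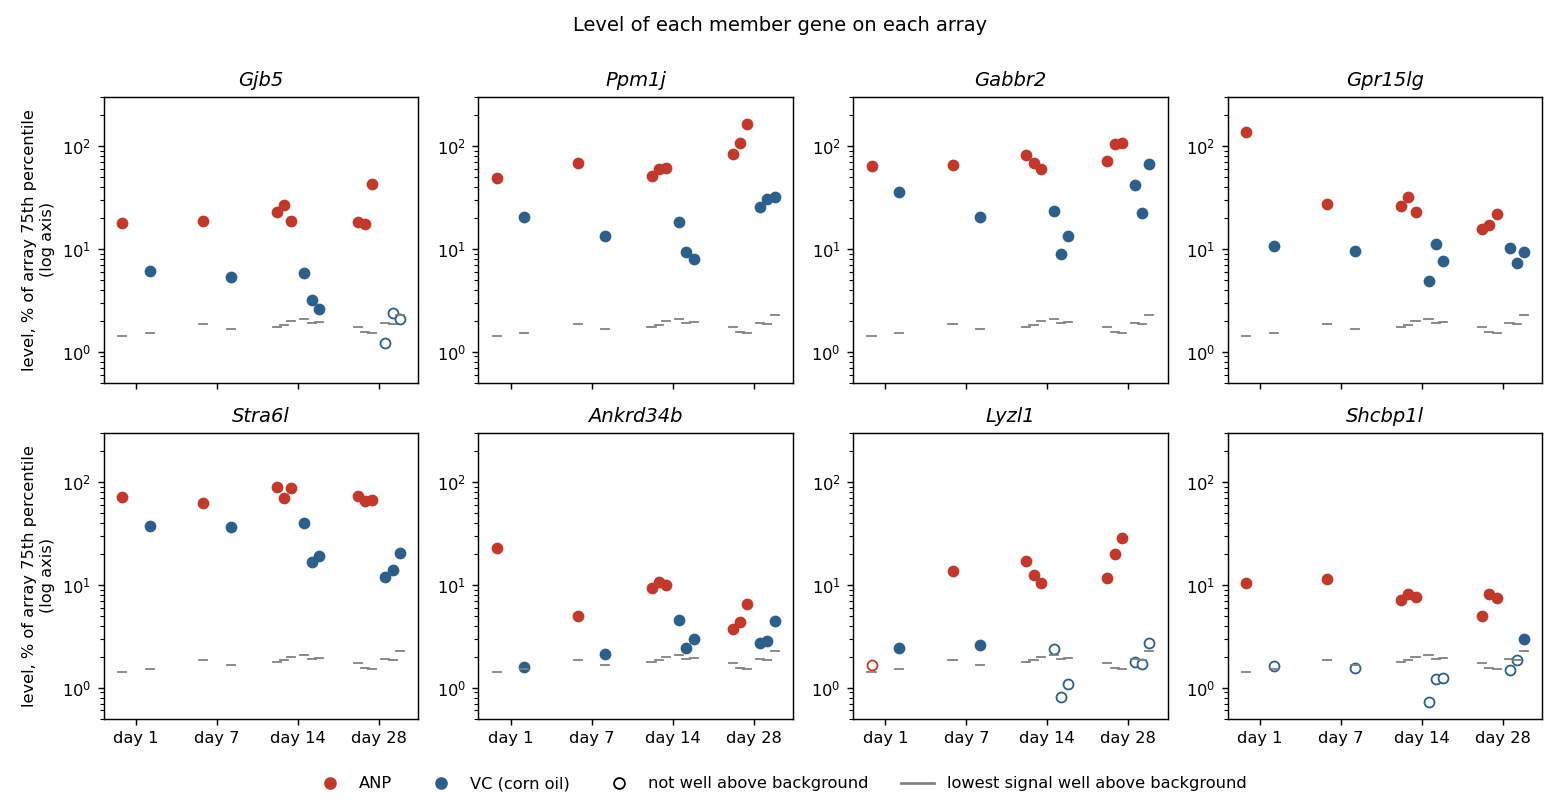
Level of each gene in every array, as a percentage of the array's 75th percentile signal on a log axis, by day, with ANP arrays left of VC arrays within a day and open points for arrays where the probe was not well above background; grey dashes mark the lowest signal well above background on each array. ANP points lie above VC points at day 14 for all 8 genes, and at day 28 for all except Ankrd34b.

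Gjb5 was low in vehicle kidneys at every time and several times higher after ANP. The level was 17.8% in the ANP pool and 6.10% in the VC pool at day 1, and 18.6% in the ANP pool and 5.34% in the VC pool at day 7. At day 14 it was 22.7%, 27.0% and 18.9% in ANP kidneys, against 5.81%, 3.18% and 2.59% in VC kidneys. At day 28 it was 18.4%, 17.6% and 42.9% in ANP kidneys, against 1.21%, 2.40% and 2.09% in VC kidneys. The groups did not overlap, ANP replicate 3 stood well above the other two, and none of the VC arrays of day 28 was well above background. The day 28 log2 ratio was 3.72 ± 0.41 (SE, n = 3 each, limma adjusted p = 0.0251). Since VC had only a bound, the probe used for Gjb5 was at least 10.96-fold higher in ANP kidneys. That bound holds for this probe only, which was picked by its mean over arrays that include the ANP arrays of day 28. The other Gjb5 probe, with 1 VC array of day 28 well above background, was 4.62-fold higher. On the day 28 arrays the signal of the probe used was 37.7- to 97.2-fold the 95th percentile of the negative control spots with ANP and 2.23- to 4.46-fold with VC. VC values were lower at day 28 than at day 14, days that also differ in slide.

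Lyzl1, by its brighter probe, was not higher with ANP at day 1 and was so at each later time. Its level was 1.65% in the ANP pool at day 1, not well above background, against 2.44% in the VC pool. By day 7 it was 13.5% in the ANP pool and 2.59% in the VC pool. The signals of both day 1 pools and of the VC pool of day 7 were close to the background. It was 17.3%, 12.4% and 10.4% in ANP kidneys of day 14, against 2.39%, 0.812% and 1.08% in VC kidneys. It was 11.5%, 20.1% and 28.3% in ANP kidneys of day 28, against 1.80%, 1.71% and 2.73% in VC kidneys. No VC array of day 14 or day 28 was well above background, whereas every ANP array of those days was. The ANP level was at least 6.34-fold higher at day 14 and at least 8.74-fold higher at day 28, where the fitted log2 ratio was 3.20 ± 0.35 (SE, n = 3 each). Its limma adjusted p was 0.0251 with the filter on dim probes and 0.0481 with no filter.

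Shcbp1l was measured in ANP kidneys from the first day of dosing and was near the background in nearly all VC kidneys. Its level was 10.5% in the ANP pool and 1.61% in the VC pool at day 1, and 11.4% in the ANP pool and 1.55% in the VC pool at day 7. At day 14 it was 7.16%, 8.11% and 7.59% in ANP kidneys, against 0.733%, 1.22% and 1.25% in VC kidneys. At day 28 it was 4.97%, 8.12% and 7.49% in ANP kidneys, against 1.4998%, 1.86% and 2.99% in VC kidneys. Of the VC arrays, only replicate 3 of day 28 was well above background. ANP was at least 6.52-fold higher at day 1, at least 6.82-fold higher at day 7 and at least 3.87-fold higher at day 14. At day 28 the log2 ratio was 1.73 ± 0.30 (SE, n = 3 each). Its limma adjusted p was 0.0425 with the filter on dim probes and 0.0771 with no filter. With the mean of its probes in place of the brighter one, the log2 ratio was 0.46 (limma adjusted p = 0.535).

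Ppm1j had one of the brighter signals and was higher with ANP at every time. The pools gave 49.4% for ANP and 20.6% for VC at day 1, and 68.8% for ANP and 13.3% for VC at day 7. ANP kidneys gave 51.2%, 59.5% and 61.6% at day 14, against 18.4%, 9.36% and 7.94% in VC kidneys. ANP kidneys gave 83.5%, 108% and 163% at day 28, against 25.4%, 30.8% and 32.1% in VC kidneys. Both groups were brighter at day 28 than at day 14, and they did not overlap on either day. The day 28 log2 ratio was 1.96 ± 0.25 (SE, n = 3 each, limma adjusted p = 0.0310).

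Stra6l, the retinol-receptor relative, had smaller ratios in the pools than in the later animals. Its level was 71.9% in the ANP pool and 37.8% in the VC pool at day 1, and 62.7% in the ANP pool and 36.7% in the VC pool at day 7. At day 14 it was 88.7%, 69.6% and 86.9% in ANP kidneys, against 40.3%, 16.8% and 19.1% in VC kidneys. At day 28 it was 72.4%, 65.8% and 67.2% in ANP kidneys, against 11.9%, 13.9% and 20.5% in VC kidneys. The ANP level ranged only from 62.7% to 88.7% over the 4 times, while the VC level ranged from 11.9% to 40.3%. The log2 ratio was 0.93 at day 1, 0.77 at day 7, 1.79 at day 14 and 2.19 ± 0.20 at day 28 (SE, n = 3 each, limma adjusted p = 0.0201).

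Gpr15lg and Ankrd34b had their highest level in the ANP pool of day 1. Gpr15lg reached 136% in that pool against 10.69% in the VC pool, a log2 ratio of 3.67, and 27.6% against 9.49% in the ANP and VC pools of day 7. It stood at 26.2%, 32.3% and 23.0% in ANP kidneys of day 14, against 4.90%, 11.3% and 7.61% in VC kidneys. It stood at 15.6%, 17.1% and 22.0% in ANP kidneys of day 28, against 10.3%, 7.29% and 9.45% in VC kidneys. The groups stayed apart on both days with replicates, and the day 28 log2 ratio was 1.02 ± 0.18 (SE, n = 3 each, limma adjusted p = 0.0444). That call was lost in the fit over all probes (limma adjusted p = 0.0529), in the fit to 12 arrays (0.0509), with no filter on dim probes (0.0797) and on leaving out any 1 of the 6 animals (0.0591 to 0.135). Ankrd34b was 22.6% in the ANP pool and 1.58% in the VC pool at day 1, a log2 ratio of 3.84, and 5.01% in the ANP pool and 2.11% in the VC pool at day 7. Its ANP kidneys had 9.35%, 10.73% and 10.01% at day 14, against 4.52%, 2.45% and 2.97% in VC kidneys. Its ANP kidneys had 3.74%, 4.35% and 6.50% at day 28, against 2.73%, 2.86% and 4.46% in VC kidneys. Those day 28 groups overlapped, since VC replicate 3 lay above 2 of the 3 ANP arrays, and the log2 ratio of 0.53 ± 0.27 did not pass (SE, n = 3 each, limma adjusted p = 0.275).

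Gabbr2, the G protein-coupling subunit of the GABA-B receptor, varied more between VC arrays than between ANP arrays, which was not particular to it. The pools gave 64.7% for ANP and 35.9% for VC at day 1, and 65.9% for ANP and 20.4% for VC at day 7. ANP kidneys gave 81.7%, 69.2% and 60.4% at day 14, against 23.6%, 9.03% and 13.2% in VC kidneys. ANP kidneys gave 71.0%, 105% and 108% at day 28, against 41.5%, 22.5% and 66.5% in VC kidneys. The groups of day 28 did not overlap, but VC replicate 3 lay just under the lowest ANP array. The log2 ratio of 1.23 ± 0.40 did not pass (SE, n = 3 each, limma adjusted p = 0.131). At day 14 the SD of the log2 levels was larger in VC than in ANP kidneys for every member. At day 28 it was 0.785 in VC and 0.337 in ANP kidneys for Gabbr2. It was then also larger in VC kidneys for Stra6l, Shcbp1l and, slightly, Gpr15lg. VC replicate 1 was the highest VC array of day 14 for every member except Gpr15lg and Shcbp1l.

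**Figure D2:**
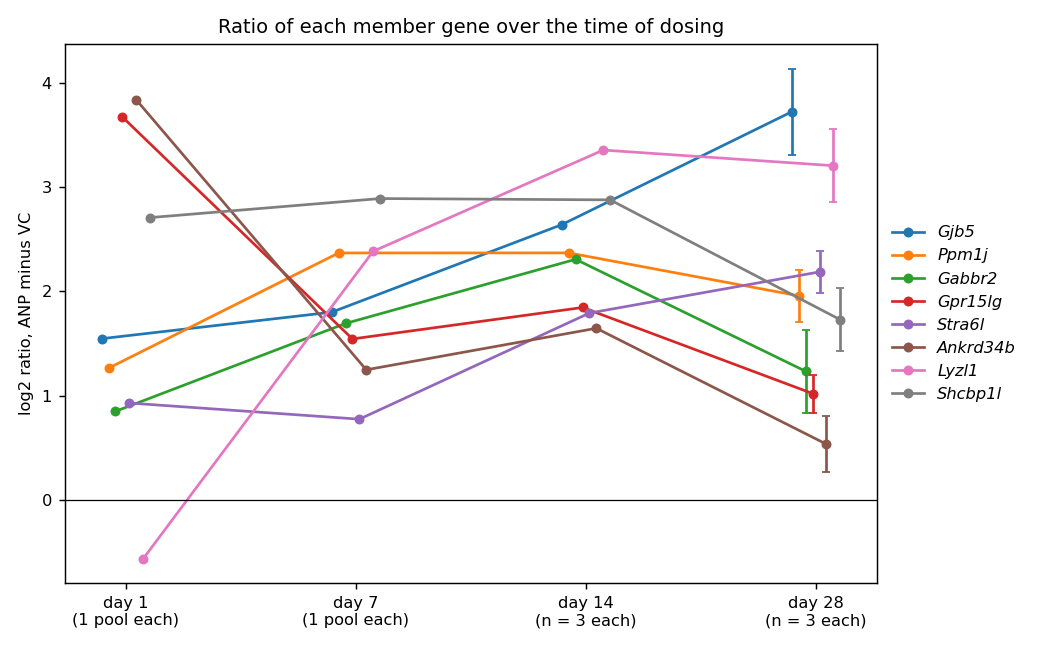
Log2 ratio of ANP minus VC for each gene at days 1, 7, 14 and 28, with bars of 1 SE at day 28 from limma (n = 3 each) and no error at days 1 and 7, which have 1 pool per group. Gpr15lg and Ankrd34b are highest at day 1, while Gjb5 and Stra6l are highest at day 28 and Lyzl1 lies below 0 at day 1.

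Among all genes measured, the day 14 ratios that chose the members ranked between 17 (Gjb5) and 37 (Ankrd34b) of 11844 for the 6 members measured in both groups. At day 28 Stra6l ranked 28, Ppm1j 44 and Gabbr2 128 of 11845 genes, while Gpr15lg ranked 201 and Ankrd34b 683. Shcbp1l, with only 1 VC array of day 28 well above background, ranked 59. Members with only a bound in VC kidneys of a day were given no rank for that day. ANP replicate 1 of day 14 shared its slide with the VC arrays of that day. Within that slide the log2 ratios of the 6 ran between 1.55 for Ankrd34b and 2.65 for Gjb5.

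The 8 genes were measured by 14 probes, of which 3 genes had 1 probe, 4 had 2 and Ankrd34b had 3. Ppm1j, Gpr15lg and Stra6l are the genes with 1 probe, so agreement of probes could not be looked at for them. The brighter probe over days 14 and 28, with ANP arrays included, stood for the gene. For Gjb5 that probe was the dimmer one in VC kidneys of day 28, with a mean log2 level of -5.78 against -5.40. At day 28, 11 of the 14 probes were bright enough to test and 7 rose (limma, adjusted over 41223 probes, of which 1.01% rose). The 7 include both Gjb5 probes, both Lyzl1 probes and the brighter Shcbp1l probe. The Lyzl1 and Shcbp1l probes were kept only because they were bright in ANP kidneys, so their calls are no support. Probes of the same gene share RNA and are no replicates. The probes of Gjb5 and Lyzl1 gave the same direction at day 28. The other Gjb5 probe had log2 ratios of 0.78, 1.79, 1.58 and 2.21 at days 1, 7, 14 and 28 (limma adjusted p = 0.0375 at day 28), smaller than those of the brighter probe at each time. The other Lyzl1 probe had log2 ratios of 0.91, 2.72, 3.60 and 3.52 (limma adjusted p = 0.0372 at day 28), and so differed in sign from the first at day 1, where both were near the background. The other Gabbr2 probe had log2 ratios of 0.73, 2.11, 2.47 and 1.42 (limma adjusted p = 0.132 at day 28).

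Shcbp1l and Ankrd34b, although they have more than 1 probe, rest on a single responding probe each, as do the genes with only 1 probe. The other Shcbp1l probe was well above background on 1 of 16 arrays, VC replicate 2 of day 28. Of the other two Ankrd34b probes, 1 was well above background on 2 arrays and 1 on 3 arrays. The probe seen on 3 arrays was measured in both pools of day 1, with 3.69% in the ANP pool and 6.97% in the VC pool, a log2 ratio of -0.92, where the brighter Ankrd34b probe had a log2 ratio of 3.84. What part of the transcript each probe covers was not used here, so the difference between probes was not traced further.

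**Figure D3:**
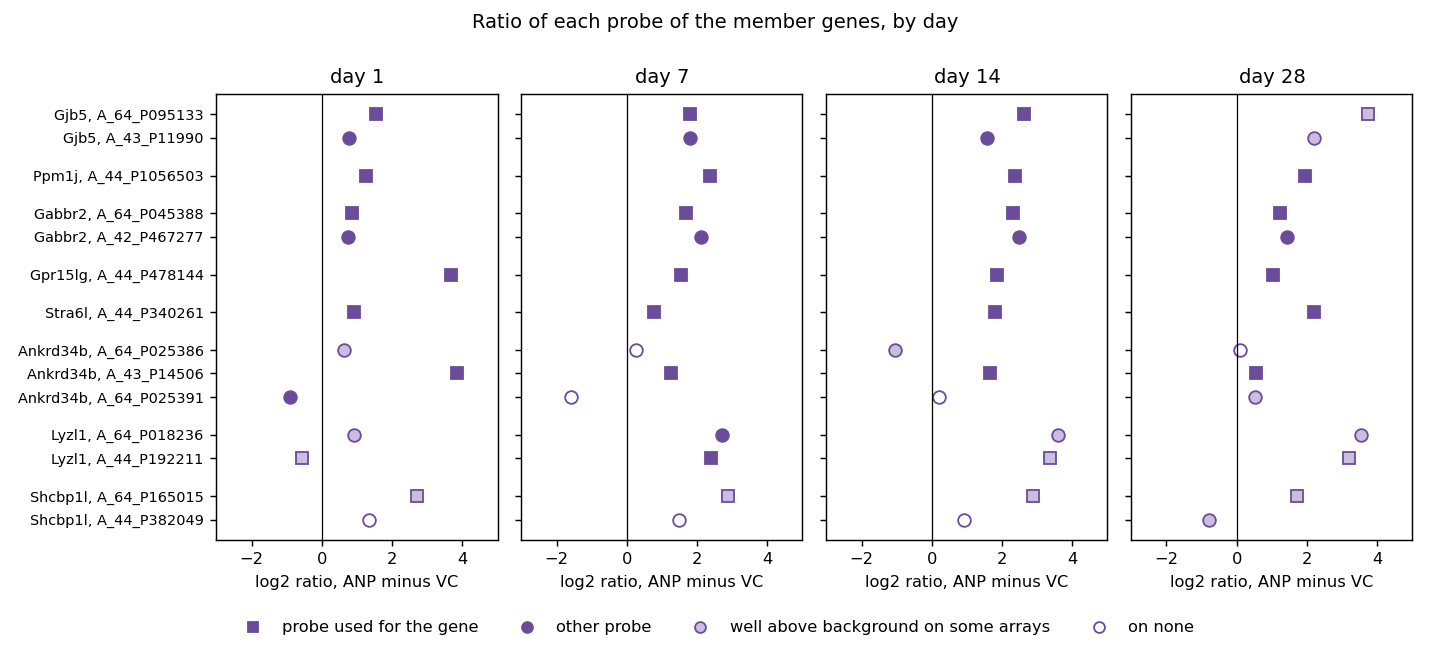
Log2 ratio of ANP minus VC for all 14 probes of the 8 genes, by day, with squares for the probe that stands for the gene, circles for the others, and pale or open symbols where a probe was well above background on some or none of that day's arrays. Both probes of Gjb5, Gabbr2 and Lyzl1 lie above 0 at days 7, 14 and 28, while the dim probes of Ankrd34b and Shcbp1l lie on both sides of it.

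The family lists hold relatives of the members and also genes related by function only. Shc3 was the only tested gene of these lists that rose at day 28. Of 10 connexin genes tested, 0 passed in either direction at an adjusted p under 0.05 (median log2 ratio -0.02). Gjb1 and Gjb2, both well above background on all 16 arrays, were chosen for mention after their values were seen. They had log2 ratios of -0.29 ± 0.20 and 0.30 ± 0.08 (SE, n = 3 each, limma adjusted p = 0.404 and 0.0971). Of 16 PP2C phosphatases, 3 fell and 0 rose: Ppm1e by a log2 ratio of -0.94, Ppm1l by -0.67 and Pdp2, which activates pyruvate dehydrogenase, by -0.64 (limma adjusted p = 0.0417, 0.0396 and 0.0448). The binding partner Gabbr1 had a log2 ratio of 0.14 ± 0.14 (SE, n = 3 each, limma adjusted p = 0.556), and of 7 GABA genes tested only Gabrp fell (-1.33 ± 0.21, limma adjusted p = 0.0385).

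Of 21 retinoid genes tested, 2 fell. Stra6 itself fell by 1.06 on the log2 scale (SE 0.20, limma adjusted p = 0.0466), and Rxrg, a retinoid receptor, fell by 1.59 (limma adjusted p = 0.0391), while 0 rose and the median log2 ratio of the list was -0.24. Gpr15, the receptor of Gpr15lg, was not well above background on any array, and 0 of 4 genes of its list passed. Ankrd34a had a log2 ratio of 0.20 ± 0.25 (SE, n = 3 each, limma adjusted p = 0.665), and Ankrd34c was not well above background on any array. Of 3 lysozyme genes tested 0 passed, with 0.34 for Lyzl6 (limma adjusted p = 0.130) and -0.05 for Lyz2, the macrophage lysozyme (limma adjusted p = 0.839). The 3 genes tested in the SHC list are SHC adaptor proteins, not paralogues of Shcbp1l. Of these, Shc3 rose by a log2 ratio of 1.18 ± 0.19 (SE, n = 3 each, limma adjusted p = 0.0396).

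**Figure D4:**
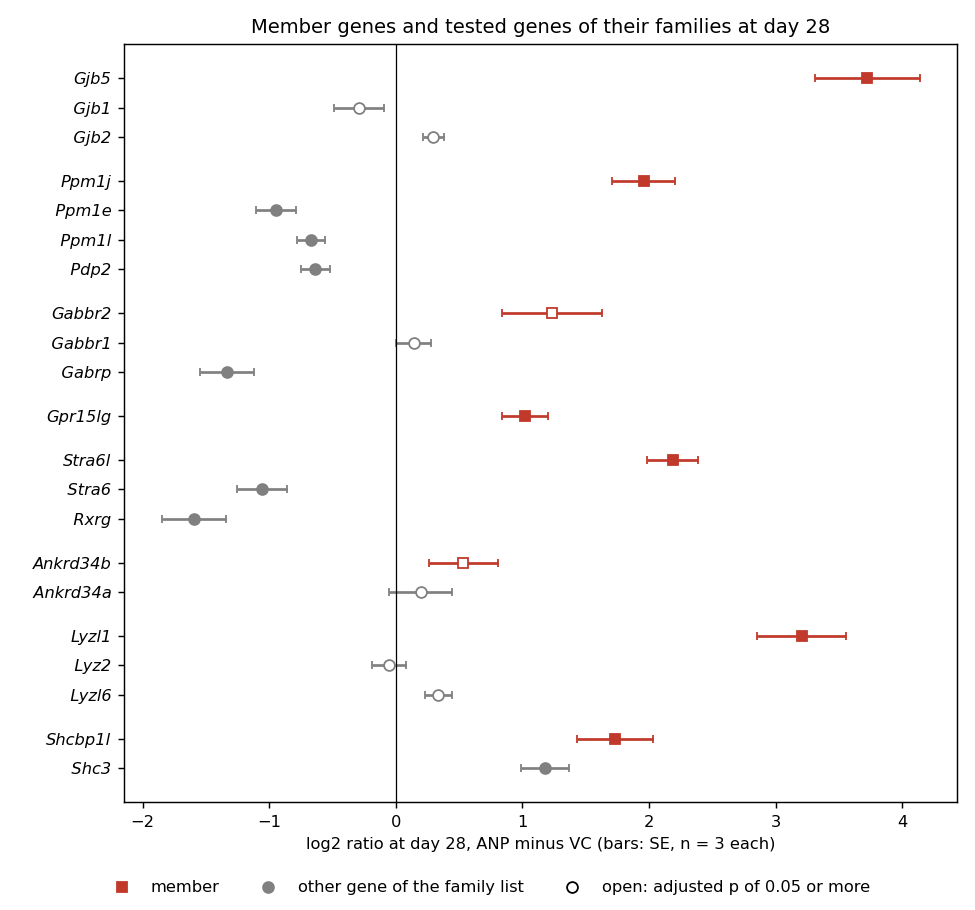
Log2 ratio at day 28 of the 8 members (squares) and of tested genes of their family lists, which also hold genes related by function only (circles), with bars of 1 SE (n = 3 each) and open points for an adjusted p of 0.05 or more. Members lie between 0.53 and 3.72, while Stra6, Gabrp, Rxrg and 3 PP2C genes lie below 0 with filled points and Shc3 lies above it.

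Some stress genes rose at day 28, where 1.82% of all genes did. Of 19 NRF2 targets tested, 5 rose, 0 fell and 14 did not pass, led by Nqo1 (3.70) and Pir (2.70), with a median log2 ratio of 1.38. Of 13 ATF4 genes 6 rose and 7 did not pass, led by Asns (3.47) and Nupr1 (3.12). Of 13 injury genes Anxa2 rose (0.77) and 12 did not pass.

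Markers of male germ cells, neurons and skin were measured too, while markers of colon, liver, intestine and placenta were not run. Germ cell markers, the setting in which Lyzl1, Shcbp1l and Ppm1j are best known, gave 0 of 5 calls, their summed level at day 28 was 0.340 to 0.422 times the 75th percentile in ANP kidneys and 0.333 to 0.714 in VC kidneys, and Ddx4, Dazl, Sycp3 and Tssk6 were not well above background on any array. In the same list Prm1, Prm2, Acr and Ldhc, named after their values were seen, were well above background on all 16 arrays and Tnp2 on 15. Neuronal markers gave 0 of 2 calls, with sums of 0.421 to 0.575 in ANP kidneys and 0.724 to 1.33 in VC kidneys and with Snap25, Syt1, Nefl and Stmn2 not well above background on any array, whereas Tubb3 and Nefm were so on all 16. Squamous and skin markers gave 0 of 2 calls, with sums of 0.279 to 0.336 in ANP kidneys and 0.310 to 0.338 in VC kidneys. Krt16, Ivl and Dsg3 were not well above background on any array, whereas Krt14 and Krt1 were so on all 16. At day 14 the squamous and skin sums were 0.306 to 0.350 in ANP kidneys and 0.238 to 0.262 in VC kidneys. The germ cell sums of that day were 0.394 to 0.463 with ANP and 0.449 to 0.504 with VC. The neuronal sums were 0.158 to 0.255 with ANP and 0.551 to 0.921 with VC.

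Markers of kidney zones differed between the groups in part. All 6 inner medulla and thin limb markers lay above 0 with 0 calls, and their summed level at day 28 was 188.2 to 199.4 times the 75th percentile in ANP kidneys and 107.1 to 146.5 in VC kidneys. Of 7 glomerular markers 3 fell, led by Wt1 (-1.11) and Ptpro (-0.995), with sums of 16.7 to 18.2 in ANP kidneys and 27.0 to 35.5 in VC kidneys. Of 7 convoluted tubule markers 3 fell, led by Slc5a12 (-1.45) and Slc5a2 (-1.16), and 1 rose, Slc22a12 (0.85). Of 6 S3 markers 2 rose, Slc22a7 (1.68) and Slc17a1 (1.19), while 0 of 6 thick ascending limb markers passed. Of 7 collecting duct markers Atp6v1b1, a proton pump subunit, fell (-0.62, limma adjusted p = 0.0484), and 1 of the 7 lay above 0, with a median of -0.38 and sums of 76.5 to 157.5 in ANP kidneys and 126.1 to 132.3 in VC kidneys. Of 5 urothelial, 7 leukocyte and 6 muscle and fat markers tested, 0 passed. The part of these differences in the results for the 8 genes was not tested.

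Genes outside the 8 whose level followed a member most closely over the 16 arrays were found by Pearson's r, as a description, since the arrays share treatment, day and slide. Members were left out of that search, and r between members was higher in some cases, with 0.951 for Gjb5 and Stra6l and 0.925 for Ppm1j and Gabbr2. For Gjb5 these were Stbd1 (0.929) and Mgst1 (0.925), a membrane glutathione transferase. For Ppm1j they were Nrg2 (0.969) and Prmt3 (0.947), and for Gabbr2 they were Adh7 (0.870) and Nrg2 (0.869). For Gpr15lg they were Hmga1 (0.951) and Atf3 (0.927), a stress-induced transcription factor. For Stra6l they were Adap1 (0.916) and Plek2 (0.911), and for Ankrd34b they were Alg10 (0.894) and Tubb5 (0.891). For Lyzl1 they were Aldh1l1 (0.947) and Lrrc51 (0.946), and for Shcbp1l they were Ptgr1 (0.946) and Abcc2 (0.927), an efflux transporter. Ptgr1 and Abcc2 are in the list of NRF2 targets used above, and Atf3 is in that of ATF4 genes. The other genes outside the 8 that are named in this paragraph are in neither list. Each value is r across 16 arrays.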

How the data were processed

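Total RNA of the renal outer medulla was labelled with Cy3 and hybridised to one-colour rat Agilent arrays, per the labels' protocols. The submitters' processing notes name Agilent Feature Extraction 10.7. Each scanner file, as deposited, gives a spot's processed signal intensity, background-subtracted by the authors' software, per the file headers. The authors' deposited value table holds a ratio, whose values follow the processed signal over the 75th percentile, and served as an alternative.

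Here, log2 of the deposited processed intensity minus each array's 75th percentile was used. Probes were named through RefSeq accessions (27460 of 61657 probes, 15284 genes), and a gene was represented by its probe of highest mean over the 12 arrays of days 14 and 28. A gene was kept (11849 were) if some group of days 14 or 28 had it well above background on each of its 3 arrays. limma 3.58.1 in R 4.3.3 (lmFit, eBayes) was fitted to the 6 arrays of day 28, with Benjamini-Hochberg adjustment over all kept genes and a threshold of 0.05, and was tested on simulated data first. Where a probe was not well above background on any array of a group, the fold is a bound: the mean of the brighter group over the mean of, per array, the higher of the lowest well-above-background signal and the probe's own. Precision is limited by how many arrays there are, and replicates at days 14 and 28 are separate animals.

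The members, gene lists and tests were chosen with earlier results of these data known. Named genes are the 8 members, the 2 named genes of highest r per member, the nearest relatives (some are not reported here) and any list gene past the threshold (at most 4 per family and 2 per marker or stress list), and markers not well above background on any array. The alternatives tried were normexp (offset 50) on the median signal, with the mean signal not used here, quantile normalization, the array median as scale, the deposited table, looser and stricter filters, averaging a gene's probes, fits to all 12 arrays with and without a slide block, a replicate block, and fits without each replicate.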

Additional observations from a re-analysis of the deposited data

Results flagged for a closer look

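Lyzl1 at day 1 stood apart from its later course. Its log2 ratio of ANP minus VC was -0.57 in the pools of day 1, and 2.38, 3.35 and 3.20 at days 7, 14 and 28, so the direction at day 1 was opposite to that at every later time. The difference between the days was not tested, since day 1 has 1 pool per group. The ANP pool of day 1 was not well above background, and the other Lyzl1 probe had a log2 ratio of 0.91 there.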

How the results depend on the processing

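A family gene here is any gene of the family lists. At day 28 the count of members called was 6, and 216 genes were higher and 215 lower, with 1 family gene higher and 6 lower and 15 marker or stress genes higher and 7 lower. Quantile normalization, the median of the array and the deposited table each called 6 members, with 224, 283 and 205 genes higher. The split of calls was 50.1% higher by the 75th percentile and 65.5% higher by the array median. Normexp gave 448 genes higher, 478 lower, 0 family genes higher and 14 marker genes lower. With no filter on dim probes 3 members were called, with 27 genes higher, 15 lower, 0 and 0 family genes higher and lower, and 2 and 1 marker genes higher and lower. With probes well above background on all 12 arrays, 3 members were called of 5 tested, with 285 of 11125 genes higher, 0 family genes higher and 11 marker genes lower. The mean of a gene's probes called 5 members, without Shcbp1l, and gave 171 genes higher and 3 family genes lower. All 12 arrays gave 532 genes higher, 0 family genes higher, 3 lower and 26 marker genes higher. Slide as a random block (correlation -0.089) gave 1098 higher, 761 lower, 3 and 10 family genes, and 29 and 11 marker genes higher and lower, and Gabbr2 passed (limma adjusted p = 0.0401, range over its alternatives 0.0401 to 0.272). Leaving out 1 replicate gave 0 to 4 members, 0 to 147 genes higher, 0 to 108 lower, 0 to 0 family genes higher, 0 to 2 lower, 0 to 20 marker genes higher and 0 to 6 lower. The replicate block called 0 members, 0 genes higher, 0 lower, 0 family genes and 0 marker genes (limma, 2659 genes at an unadjusted p under 0.05). Animals with the same number had correlations of -0.07, -0.05 and 0.11 in their deviations, so the numbers do not pair the animals. Under the mean of a gene's probes, the log2 ratio of Ankrd34b at day 7 was -0.028 and that of Lyzl1 at day 1 was 0.17, since dim probes enter the mean. All 8 ratios at day 28 were above 0 in every setting that tested them. For the 7 genes whose groups did not overlap, this was bound to be so in the fits that left out 1 replicate. The cause of the other changes was not tested.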

Other observations

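Genes next to the members in the order of the GRCr8 annotation were looked at as a description. Of 16 nearest neighbours 9 were tested at day 28, with log2 ratios between -0.43 and 0.62, and 1 passed, Fam151b beside Ankrd34b (0.62, limma adjusted p = 0.0373). Stra6l and Gabbr2 lie on the same chromosome with 14 protein-coding genes between them. Of these 12 were tested, with a median log2 ratio of 0.19, and 1 passed, Nans (0.50, limma adjusted p = 0.0444), while Hemgn, chosen for mention after its value was seen, had 2.03 (limma adjusted p = 0.0874).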
